A study of Mus musculus with 4 samples.

Results

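The genes described here are 9 components of the NF-kB pathway, of 32285 genes counted in both single-cell libraries of the series. They were taken by symbol. Of these, 5 are the DNA-binding Rel family subunits (Nfkb1, Nfkb2, Rel, Rela and Relb) and 4 are feedback genes (Nfkbia, Nfkbiz, Tnfaip3 and Birc3). The series profiled LSK cells, the Lineage-negative, Sca-1-positive, cKit-positive bone marrow fraction with the blood stem cells and early progenitors, from C57BL/6 mice at homeostasis or 9 days after 100 mg/kg 5-fluorouracil (5-FU), an antimetabolite that kills cycling progenitors. Wild-type cells came, per the study's methods, from mice with both Sin3b alleles floxed and no Cre (males at homeostasis). Knockout cells came from floxed mice that also carried Vav1-iCre, which deletes Sin3b in all blood cells from fetal life onward. Cells of 2 mice per genotype were pooled, tagged with 1 hashtag per genotype and loaded in 1 library per condition.

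NF-kB factors are dimers of Rel family proteins. Rela, Rel and Relb carry the transactivating part, whereas Nfkb1 and Nfkb2 encode precursors that are cut to the p50 and p52 partners. In resting cells IkB proteins such as the product of Nfkbia hold the dimers in the cytoplasm, and signals from TNF, IL-1 or Toll-like receptors lead to IkB degradation and entry of the dimer into the nucleus. Nfkbia, Tnfaip3, Birc3 and Nfkbiz are themselves induced by the pathway. Nfkbia resupplies IkB alpha and Tnfaip3 encodes the ubiquitin-editing enzyme A20, both of which shut the signal off. Birc3 encodes the ubiquitin ligase cIAP2, which acts in TNF receptor signaling, and Nfkbiz encodes a nuclear IkB that modulates a subset of targets, many of which it helps to activate. In hematopoietic stem cells the pathway links inflammatory cues to survival and exit from quiescence.

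The promoters of the members were searched for the letters that NF-kB dimers bind. RefSeq windows (GRCm38.p6) from 250 bases before to 50 bases after a gene start were found for 6 of the 9 genes, and not for Nfkb1, Relb or Nfkbiz. The NF-kB consensus motif was searched on both strands, and overlapping matches were counted separately. It was present for 4 of these 6 genes (Nfkb2, Rel, Nfkbia and Tnfaip3), for 21 of 60 other pathway genes (35%) and for 1388 of all 27025 genes with a window (5.14%). No match lay in the windows of Rela and Birc3. The windows below, shown because they place such a match near the start of an inhibitor or subunit gene, give 1 match for each of the 4 genes and a second for Nfkb2, on the strand of the gene with the match in capitals and up to 20 bases on either side. The first base of the match stood at -39 (Nfkb2), -92 (Rel), -29 (Nfkbia) and -12 (Tnfaip3) with the gene start counted as 0. A second Nfkb2 match began 10 bases after another annotated start of that gene.
Nfkb2 (chr19:46304678-46304727): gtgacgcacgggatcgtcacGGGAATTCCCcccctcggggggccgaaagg
Nfkb2, other start (chr19:46305685-46305734): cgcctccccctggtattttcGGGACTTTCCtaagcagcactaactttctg
Rel (chr11:23771032-23771081): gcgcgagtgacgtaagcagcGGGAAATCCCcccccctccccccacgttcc
Nfkbia (chr12:55492647-55492696): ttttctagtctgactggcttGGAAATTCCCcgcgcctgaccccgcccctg
Tnfaip3 (chr10:19015393-19015442): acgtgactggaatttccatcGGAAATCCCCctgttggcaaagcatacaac

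After hashtag assignment and quality filters, the homeostasis library kept 10296 wild-type and 4115 knockout cells and the 5-FU library 4855 and 3308, with 32040000 to 83933200 UMIs per genotype pool. Sin3b, the targeted gene, stood at 81.8 CPM (counts scaled to the same UMI total in each pool) in the wild-type and 23.3 in the knockout pool at homeostasis, and at 113 and 15.1 after 5-FU, so it was lower but not at 0 in cells tagged as knockout. Clusters were called LT-HSC-like (long-term stem cells), megakaryocyte-erythroid-primed-like or lymphoid-primed-like when they held at least 50 cells and over 50% of a class's markers were raised 1.5-fold, and the other clusters stayed unnamed (2 at homeostasis, of 16 and 48 cells, passed on markers but were too small). The LT-HSC-like class held 1155 wild-type and 1521 knockout cells in the homeostasis library, and 800 and 956 after 5-FU. Genotypes were spread unevenly over clusters, since at homeostasis LT-HSC-like cluster 10 held 113 wild-type and 819 knockout cells and cluster 11 held 1042 and 702, and after 5-FU LT-HSC-like cluster 11 held 253 and 713 and cluster 13 held 547 and 243. The 113 wild-type cells of cluster 10 had Sin3b at 47.8 CPM, against 81.7 CPM in the wild-type cells of cluster 11. Cluster 10 had 6 of 9 LT-HSC markers raised and cluster 11 had 9 of 9. Elavl4, Agbl4, Gm42031 and Sva were among the leading genes of cluster 10 and also of unnamed cluster 12. That cluster held 96 wild-type and 1457 knockout cells and had 1 of 9 LT-HSC markers raised. The name of cluster 10 is therefore less certain than that of cluster 11. Both libraries shared 76 cell barcodes. Because condition and library coincide and the libraries were counted with different software versions, levels were not compared between conditions.

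The members differed in how far they marked a cell class. Rel, the c-Rel subunit typical of lymphoid cells, had the clearest order. In wild-type cells at homeostasis it was at 77.2 CPM (95% Poisson interval 71.2 to 83.6) in lymphoid-primed-like, 42.5 (38.1 to 47.2) in LT-HSC-like and 29.2 (25.4 to 33.4) in megakaryocyte-erythroid-primed-like cells. After 5-FU the order was the same, at 86.3 CPM (73.6 to 101), 51.4 (46.0 to 57.3) and 14.3 (12.0 to 16.9). No interval of Rel overlapped that of its neighbour in either condition. These intervals cover counting error only, as do all those that follow.

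Nfkbiz and Birc3 shared the low level in megakaryocyte-erythroid-primed-like cells. Nfkbiz was at 17.5 CPM there in wild-type cells at homeostasis, against 57.9 in LT-HSC-like and 69.4 in lymphoid-primed-like cells, and at 17.0, 79.2 and 65.7 CPM after 5-FU. Birc3 was at 28.2, 46.5 and 63.1 CPM in the same 3 classes at homeostasis and at 12.4, 32.3 and 26.5 after 5-FU. For both genes the intervals of LT-HSC-like and lymphoid-primed-like cells lay apart at homeostasis and overlapped after 5-FU. Relb, the subunit of the noncanonical pathway, was also lowest in megakaryocyte-erythroid-primed-like cells, at 6.27 CPM at homeostasis and 6.02 after 5-FU, while LT-HSC-like (14.8 and 16.5) and lymphoid-primed-like cells (12.1 and 17.5) could not be ordered.

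Nfkbia was highest in LT-HSC-like cells. It was at 85.9 CPM (79.7 to 92.5) in wild-type LT-HSC-like cells at homeostasis, with 67.1 in megakaryocyte-erythroid-primed-like and 66.5 in lymphoid-primed-like cells, which overlapped. After 5-FU the 3 classes stood at 284 CPM (271 to 297), 142 (135 to 150) and 173 (155 to 193), with no overlap. Nfkb2 was highest in LT-HSC-like cells after 5-FU, at 23.1 CPM (19.6 to 27.2) against 11.6 in lymphoid-primed-like and 9.70 in megakaryocyte-erythroid-primed-like cells, and its 3 intervals overlapped at homeostasis (5.04 to 7.67 CPM). Nfkb1 at homeostasis was at 184 CPM (175 to 194) in lymphoid-primed-like, 171 (162 to 180) in LT-HSC-like and 156.9 (148 to 166) in megakaryocyte-erythroid-primed-like cells, where only the first and the last lay apart. It ran from 114 (megakaryocyte-erythroid-primed-like, apart) to 141 after 5-FU. Rela ran from 33.2 to 38.0 and from 41.3 to 55.3, and its 3 intervals overlapped their neighbours in both conditions. Tnfaip3 was at 6.68 to 7.67 CPM at homeostasis and 5.30 to 12.1 after 5-FU, and its classes could not be ordered. In barcodes of 1 to 100 UMIs of the homeostasis library, which hold free RNA, Tnfaip3 was at 59.3 CPM and Nfkbia at 329 CPM, above their levels in cells, and the part of this RNA in the levels was not tested.

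**Figure D1:**
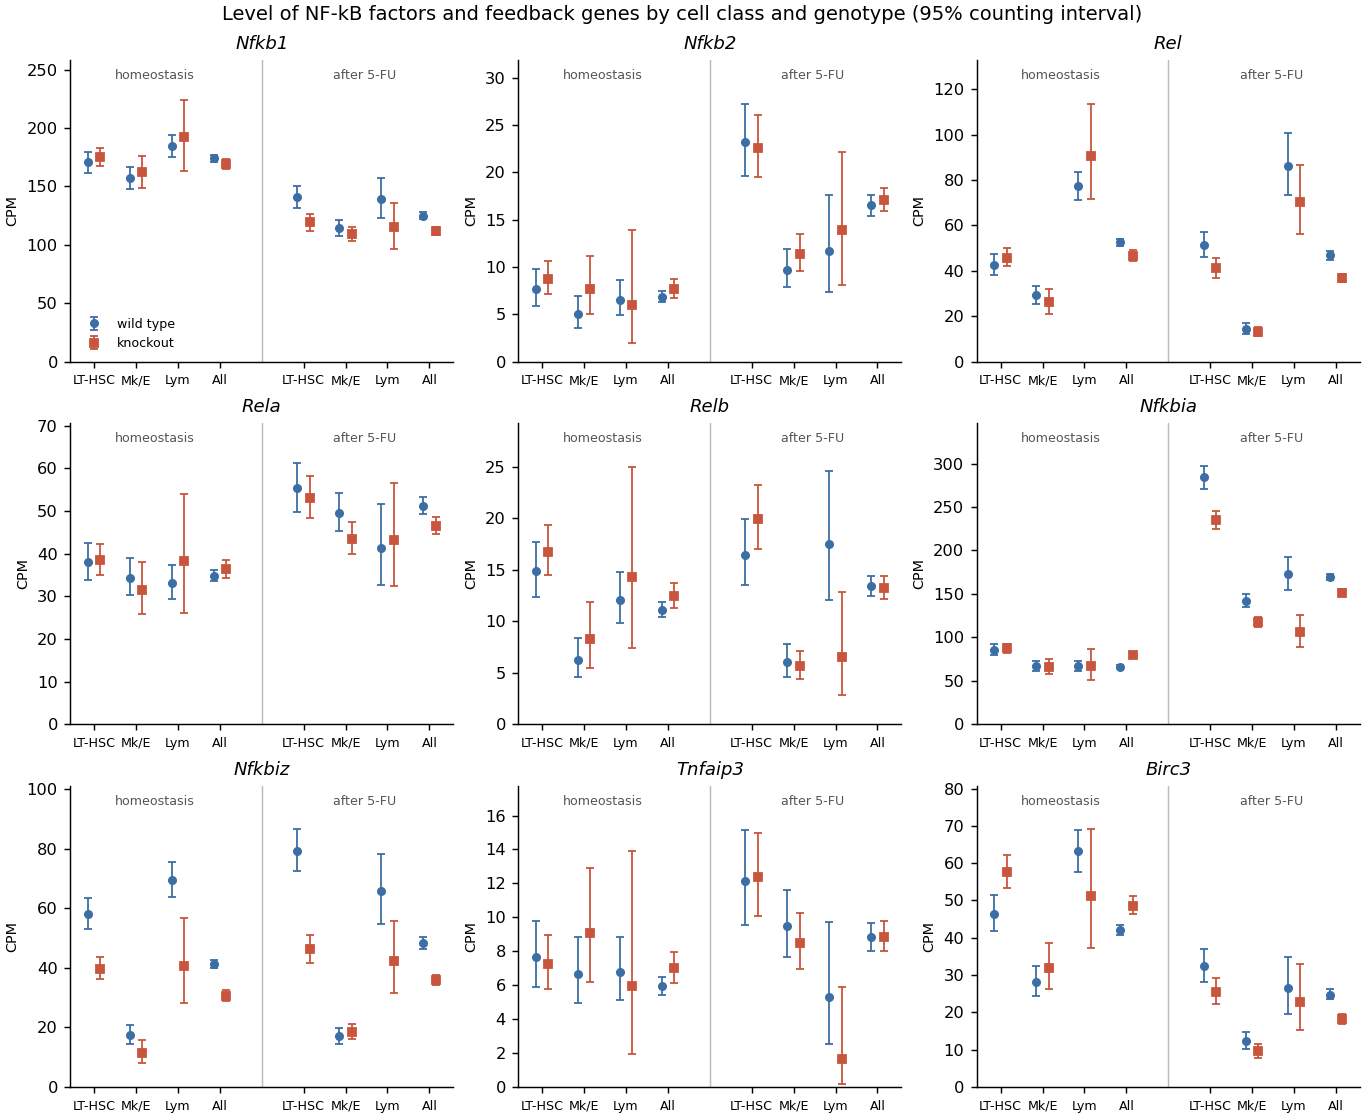
Level (CPM, vertical axes from 0) of the 9 genes in LT-HSC-like (LT-HSC), megakaryocyte-erythroid-primed-like (Mk/E), lymphoid-primed-like (Lym) and all kept cells (All), for wild-type (blue circles) and knockout pools (red squares), with 95% Poisson intervals. In wild-type pools Rel, Relb, Nfkbiz and Birc3 were lowest in the Mk/E class, and Nfkbiz was lower in knockout than in wild-type LT-HSC-like cells in both conditions (57.9 against 39.6 CPM and 79.2 against 46.2 CPM).

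Across the 13 clusters of at least 50 cells in each library, with genotypes summed, the spread was smallest for Nfkb1 and larger for Rel and Nfkbiz. For Nfkb1 the highest cluster was 1.5-fold above the lowest in both conditions. The span was 3.12-fold at homeostasis and 6.49-fold after 5-FU for Rel, and 4.46-fold and 7.01-fold for Nfkbiz. For Relb it was 5.0-fold at homeostasis. At homeostasis an unnamed cluster of 127 cells led by Cxcl10, Cxcl9 and Batf3 had the highest Nfkb1, Rela, Relb, Nfkbia, Tnfaip3 and Birc3, with Nfkbia at 102 CPM (81.8 to 126) and Birc3 at 76.5 (59.1 to 97.3). It held 3 raised markers of 5 in the dendritic cell list. In its 87 wild-type cells alone Nfkb1 was at 191 CPM, below 197 in cluster 8, and Rela at 41.9, below 42.6 in cluster 10. Its Relb level rested on 13 wild-type and 5 knockout UMIs, and its Tnfaip3 level on 6 and 4. An unnamed cluster, whose leading genes were Ctsg and Elane of neutrophil granules and then DNA replication genes such as Pclaf, Rrm2, Tk1 and Mcm10, and which had 4 of 8 neutrophil-primed markers raised, was lowest for all members but Rel, with Nfkbiz at 15.5 CPM (13.5 to 17.8). Rel was lowest in the megakaryocyte-erythroid-primed-like cluster, at 28.2 CPM. After 5-FU, LT-HSC-like cluster 13 (led by Neo1, Inhba and Meg3) had the highest Nfkbia, at 290 CPM (278 to 302), and the highest Nfkbiz, at 85.2 (78.7 to 92.0). Few clusters next to each other in these orders lay apart in their intervals, at most 4 of 12 neighbouring pairs (Nfkbia after 5-FU). As the clusters were made from these cells, these are descriptions and were not tested.

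**Figure D2:**
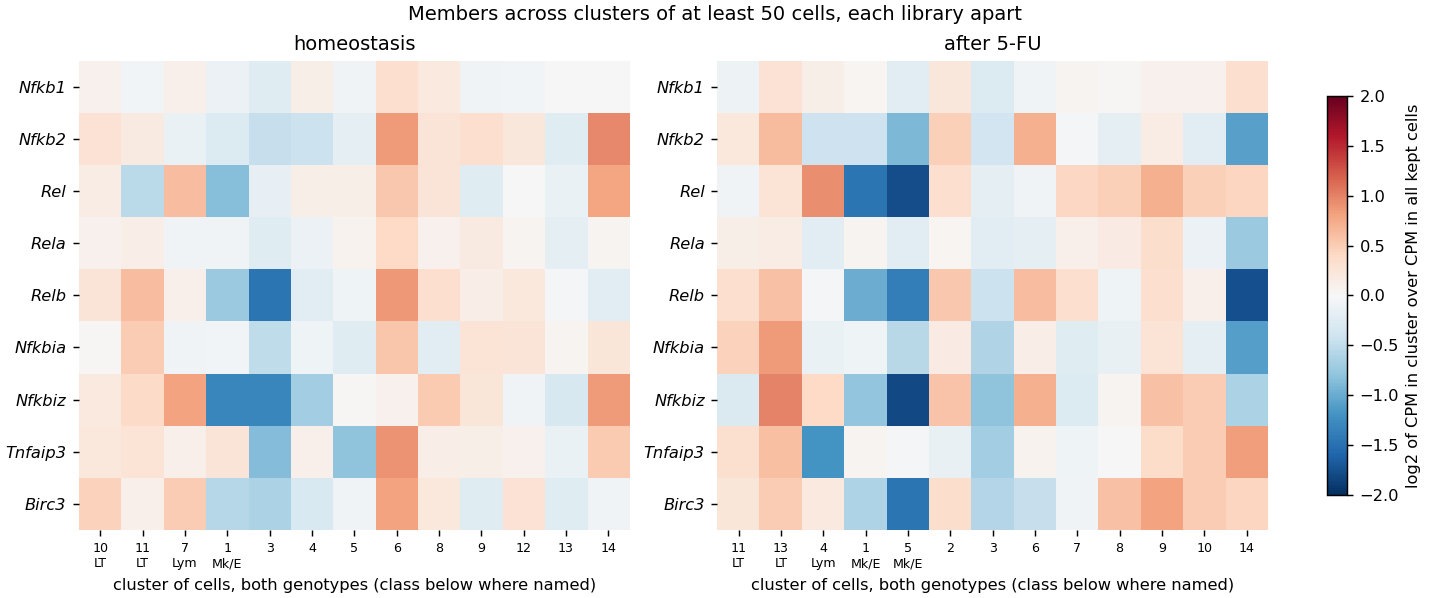
Heat map of the 9 genes (rows) over clusters of at least 50 cells (columns, each library apart, genotypes summed), where color gives log2 of the cluster's CPM over the CPM of all kept cells and the class is written below the cluster number (LT, LT-HSC-like; Lym, lymphoid-primed-like; Mk/E, megakaryocyte-erythroid-primed-like). Nfkb1 is near 0 throughout, and after 5-FU Nfkbia and Nfkbiz peak in LT-HSC-like cluster 13.

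The genes most like each member over these clusters were ranked by the lower of the 2 within-library Pearson correlations (13 clusters each, log2 of CPM + 1), among genes of at least 20 CPM in both libraries. The closest matches were Tmem173 (0.91), Slc43a2 (0.89) and Arhgap30 (0.88) for Rel, Aim2 (0.91), Fbxo32 (0.91) and Tecpr1 (0.89) for Birc3, and Ubl3 (0.89), Prxl2c (0.88) and Calcoco1 (0.87) for Nfkbiz. The others were Khnyn (0.84), 4833420G17Rik (0.82) and Ptprc (0.80) for Nfkb1, Anxa7 (0.81) and Pnpla2 (0.80), of the 3 closest, for Nfkb2, Gm16124 (0.80), Ap4s1 (0.79) and Ccdc28a (0.78) for Rela, and Phyh (0.83), Idnk (0.83) and Ly6a (0.82) for Relb. Nfkbia was closest to Rps27rt (0.84), Gabarap (0.82) and Hcfc1r1 (0.81), and Tnfaip3 to Shoc2 (0.85), Ifih1 (0.85) and Gtpbp8 (0.83). Clusters of 1 library share their depth and their cells' preparation, so these values are descriptive. The 13 clusters after 5-FU include shallow cluster 14 (median 1820 UMIs per cell), the highest for Tnfaip3 and the lowest for Nfkb2, Relb and Nfkbia. Its wild-type and knockout cells held 5 and 3 UMIs of Tnfaip3, 2 and 2 of Nfkb2 and 1 and 1 of Relb.

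Between genotypes in LT-HSC-like cells, the interval of the ratio lay above 0 for 1 member (Birc3) and below 0 for 1 (Nfkbiz) at homeostasis, against 14.8% and 11.6% of 12366 genes with at least 50 UMIs over both pools. After 5-FU it lay above 0 for 0 members and below 0 for 5 (Nfkb1, Rel, Nfkbia, Nfkbiz and Birc3), against 11.5% and 14.4% of 10986 genes. These 5 members held 208 (Birc3) to 1829 UMIs (Nfkbia) in the wild-type pool after 5-FU. Counting intervals narrow with depth, and the shares cover all genes from 50 UMIs up, so they are not matched for depth. At homeostasis 0 of the 9 members were at least 1.5-fold higher in knockout LT-HSC-like cells and 0 were at least 1.5-fold lower, against 2.58% and 3.81% of those genes. After 5-FU 0 were higher and 1 was lower (Nfkbiz), against 2.89% and 3.77%. Over the members the median log2 ratio (knockout over wild type) came to 0.04 at homeostasis, beside 0.02 over all genes, and to -0.24 beside -0.01 after 5-FU. With 1 pool per genotype and library, these ratios have no replicate within a condition and no test.

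Of the Rel family, Nfkb1 was at 171 CPM in wild-type and 175 in knockout LT-HSC-like cells at homeostasis, and at 141 and 119 after 5-FU. At homeostasis the interval of the ratio included 0 (log2 ratio 0.04, 95% binomial interval -0.06 to 0.14) and the knockout pool was lower after 5-FU (-0.24, -0.37 to -0.11). Within clusters the 5-FU ratio of Nfkb1 was nearer 0, at -0.08 (-0.31 to 0.17) in cluster 11 and -0.12 (-0.31 to 0.06) in cluster 13, and both intervals included 0. Rel was at 42.5 and 45.8 CPM at homeostasis (0.11, -0.09 to 0.31), and at 51.4 and 41.1 after 5-FU (-0.32, -0.54 to -0.10). The direction of Rel at homeostasis turned within clusters, to -0.08 (-0.42 to 0.29) in cluster 10 and -0.45 (-0.77 to -0.14) in cluster 11, and it was positive in only 6 of 15 alternatives. After 5-FU the ratio was -0.20 (-0.58 to 0.21) in cluster 11 and -0.23 (-0.56 to 0.08) in cluster 13, both intervals including 0, and 0.0011 in cells classed by an LT-HSC signature.

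Rela, the main transactivating subunit, was at 38.0 and 38.5 CPM at homeostasis and 55.3 and 53.1 after 5-FU, with ratios of 0.02 (-0.19 to 0.23) and -0.06 (-0.26 to 0.15). Nfkb2 was at 7.67 and 8.72 CPM at homeostasis and 23.1 and 22.5 after 5-FU, with ratios of 0.18 (-0.28 to 0.66) and -0.04 (-0.36 to 0.28). For both genes the interval of the ratio included 0 in each condition, and it covers counting error only. Relb was at 14.8 and 16.8 CPM at homeostasis and 16.5 and 19.9 after 5-FU, with ratios of 0.17 (-0.16 to 0.51) and 0.27 (-0.09 to 0.64). Within clusters Relb was at 0.01 (-0.69 to 0.86) in cluster 10 and 0.51 (0.09 to 0.93) in cluster 11 at homeostasis, and at -0.05 (-0.66 to 0.63) in cluster 11 and 0.70 (0.22 to 1.18, past 1.5-fold) in cluster 13 after 5-FU. These intervals overlapped within each condition, and a difference between clusters was not tested. In cells classed by the signature Relb had a homeostasis ratio of 0.52 (0.20 to 0.84) and a 5-FU ratio of 0.44 (0.06 to 0.85). Summed over the family, the level was 274 CPM in the wild-type and 285 in the knockout pool at homeostasis (0.06, -0.02 to 0.14) and 287 and 256 after 5-FU (-0.17, -0.26 to -0.08). The 5-FU value was -0.067 with cluster 13 left out and -0.046 with cluster 11 left out.

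Of the feedback genes, Nfkbiz was at 57.9 CPM (52.8 to 63.4) in wild-type and 39.6 (36.1 to 43.4) in knockout LT-HSC-like cells at homeostasis, and at 79.2 (72.5 to 86.4) and 46.2 (41.7 to 51.0) after 5-FU. It was the only member whose knockout pool lay below the wild-type pool in both conditions with intervals of the ratio that excluded 0, at -0.55 (-0.74 to -0.36) and -0.78 (-0.97 to -0.58). Within the homeostasis clusters it was -0.55 in cluster 10 and -0.62 in cluster 11, and within the 5-FU clusters -1.17 in cluster 11 and -0.01 in cluster 13, so the 5-FU call was absent without cluster 11. With genotypes weighted equally within clusters the 5-FU value was -0.42, under 1.5-fold. Nfkbia was at 85.9 and 87.2 CPM at homeostasis (0.02, -0.12 to 0.16) and at 284 and 235 after 5-FU (-0.27, -0.37 to -0.18). The homeostasis value was 0.04 (-0.28 to 0.38) within cluster 10, 0.36 (0.18 to 0.53) within cluster 11 and 0.18 (0.05 to 0.30) by LT-HSC signature. After 5-FU Nfkbia was at -0.10 (-0.27 to 0.07) within cluster 11 and -0.16 (-0.29 to -0.03) within cluster 13. Birc3 was at 46.5 and 57.5 CPM at homeostasis (0.31, 0.12 to 0.49) and at 32.3 and 25.5 after 5-FU (-0.34, -0.62 to -0.06), so the higher pool was the knockout in 1 condition and the wild type in the other. Within clusters Birc3 was at 0.12 and 0.20 at homeostasis (clusters 10 and 11) and at -0.40 and -0.20 after 5-FU (clusters 11 and 13), and each of these intervals included 0. Tnfaip3 was at 7.67 and 7.26 CPM and at 12.1 and 12.4, with ratios of -0.08 (-0.57 to 0.42) and 0.03 (-0.41 to 0.47). Summed over the 4 feedback genes, the level was 198 CPM in the wild-type and 192 in the knockout pool at homeostasis (-0.05, -0.14 to 0.05) and 408 and 319 after 5-FU (-0.35, -0.43 to -0.28). The 5-FU value was -0.28 without cluster 13 and -0.12 without cluster 11.

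**Figure D3:**
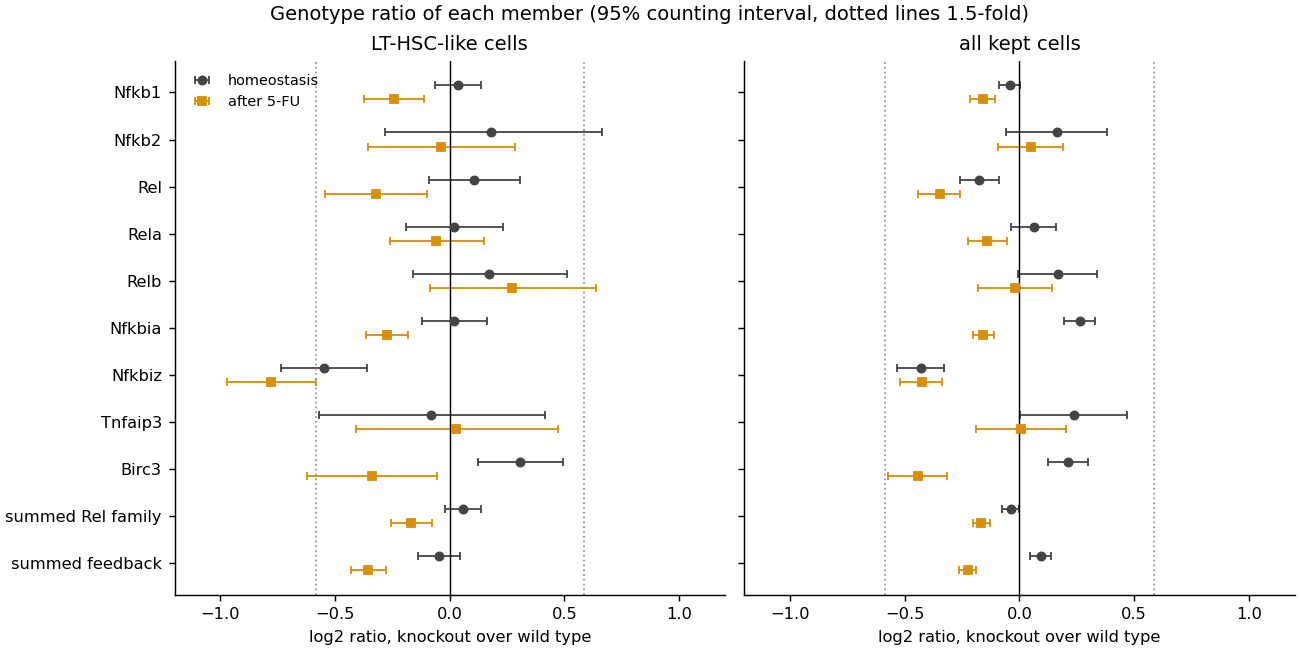
Log2 ratio of knockout over wild type (horizontal axis) for each gene and for the summed Rel family and feedback genes, at homeostasis (grey circles) and after 5-FU (orange squares), with 95% exact binomial intervals and dotted lines at 1.5-fold. Nfkbiz lies left of 0 in both conditions (-0.55 and -0.78 in LT-HSC-like cells), and Birc3 on opposite sides (0.31 and -0.34).

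Over the 4 pools, edgeR's quasi-likelihood test with condition as a term called 0 of the 9 members in LT-HSC-like cells at an adjusted p (Benjamini-Hochberg over all genes) under 0.05, against 0.122% of 13952 genes (17 genes, Sin3b among them with an adjusted p of 0.0070). Nfkbiz was the 1 member with an unadjusted p under 0.05, as were 1026 of the 13952 genes, with a log2 fold change of -0.66 (approximate SE 0.11), an unadjusted p of 0.00021 and an adjusted p of 0.092, and it was lower in the knockout pool of both conditions. DESeq2 also called 0 members, with an unadjusted p for Nfkbiz of 0.0089 and an adjusted p of 0.99994, and edgeR without a filter on low counts called Nfkbiz alone (adjusted p 4.0e-05). The test rests on 2 pools per genotype and 1 residual degree of freedom, which holds the change of the genotype ratio between conditions.

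In all kept cells, which carry the makeup of each pool as well, edgeR called 0 of the 9 members, against 1.71% of 17225 genes. At an unadjusted p under 0.05 were 2438 of the 17225 genes and 2 members, Nfkbiz (log2 fold change -0.42, approximate SE 0.086, adjusted p 0.067) and Rel (-0.25, 0.088, adjusted p 0.25). DESeq2 called 0 members (adjusted p of Nfkbiz 0.21). With library-size scaling in place of TMM the adjusted p of Nfkbiz was 0.032, and without the low-count filter it was 0.034. Nfkbiz was at 41.2 CPM in the wild-type and 30.6 in the knockout pool at homeostasis and at 48.2 and 35.9 after 5-FU, ratios of -0.43 (-0.53 to -0.33) and -0.43 (-0.52 to -0.34). Rel was at 52.6 and 46.6 CPM and at 46.7 and 36.7 (-0.17 and -0.35). By fold, 0 members were 1.5-fold higher or lower in either condition, against 5.41% higher and 5.18% lower of 15531 genes at homeostasis and 3.69% and 4.84% of 13512 genes after 5-FU.

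Nfkbiz was also lower in knockout cells outside the LT-HSC-like class, though not in every class and condition. In megakaryocyte-erythroid-primed-like cells at homeostasis 1 member was at least 1.5-fold higher (Nfkb2, on 63 UMIs, interval -0.18 to 1.36) and 1 lower (Nfkbiz, -0.59, -1.16 to -0.08), against 3.41% and 3.94% of all genes. After 5-FU no member passed either fold in these cells, against 2.5% and 3.6%, and Nfkbiz was at 17.0 CPM in wild-type and 18.5 in knockout cells. In lymphoid-primed-like cells at homeostasis 0 members were higher and 1 lower (Nfkbiz, -0.76, -1.32 to -0.28), against 5.96% and 11.4% of genes. There 1 of 9 members is near the share of all genes, and the knockout pool held 34 Nfkbiz UMIs. After 5-FU 0 were higher and 2 lower, against 4.31% and 6.22%, Nfkbia at 173 and 106 CPM (-0.71, -1.01 to -0.41) and Nfkbiz at 65.7 and 42.4 (-0.62, -1.13 to -0.15). In these cells after 5-FU Nfkb2, Relb and Tnfaip3 fell under the floor of 50 UMIs over both pools, so they could not be called. The lymphoid-primed-like knockout pools held 106 and 91 cells. Of the 9 clusters at homeostasis with at least 50 cells of each genotype, 8 had lower Nfkbiz in knockout cells and 7 had an interval below 0, with ratios from -1.30 to 0.10. Of the 10 such clusters after 5-FU with at least 50 Nfkbiz UMIs, 6 were lower, 4 of them with an interval below 0, and 4 were higher. These counts include the LT-HSC-like clusters. Clusters of 1 library are parts of the same pools and not replicates, and no share over all genes was computed for these counts.

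After 5-FU the ratio of Nfkbiz moved with the immediate early genes, a list of 15 that includes Fos, Jun, Egr1 and Dusp1, which are switched on within minutes of a stimulus and also during tissue dissociation. The Pearson correlation of Nfkbiz with the list over clusters was 0.77 at homeostasis (9 clusters, 0.51 without cluster 9) and 0.77 after 5-FU (11 clusters). For the other members it ran from -0.07 (Birc3) to 0.52 (Nfkb2) after 5-FU. In LT-HSC-like cluster 11 the list summed to 4431 CPM in wild-type and 1778 in knockout cells, and Nfkbiz was at 60.9 and 27.1 CPM (-1.17, -1.54 to -0.79). In LT-HSC-like cluster 13 the list summed to 2969 and 2873 CPM, and Nfkbiz was at 85.4 and 84.7 (-0.01, -0.25 to 0.22). In the 6 clusters where the log2 ratio of the list lay within 0.3 of 0, a limit set after the values were seen, the ratio of Nfkbiz ran from -0.06 to 0.25 and no interval lay below 0. In the other 5 clusters the list was lower in knockout cells (-1.32 to -0.97), and Nfkbiz had an interval below 0 in 4, the exception being a shallow cluster (number 14) with 23.2 and 29.7 CPM. Sin3b in the wild-type cells of these 5 clusters stood at 69.4 to 81.1 CPM, against 120 to 132 in the 6 clusters near 0. In wild-type cells the list summed to 1552 CPM in cluster 14 and 3018 to 4801 in the other 4, against 1045 to 2969 in those 6. In knockout cells it summed to 791 to 2144 and 1121 to 2873 CPM. The part of this split in the Nfkbiz ratios was not tested. At homeostasis the list was lower in knockout cells in all 9 clusters (-0.73 to -0.35). Over all LT-HSC-like cells it summed to 661 CPM in the wild-type and 403 in the knockout pool at homeostasis and to 3341 and 2141 after 5-FU. The part of these genes in the Nfkbiz result was not tested. Interferon response genes, a list of 12, summed to 905 and 753 CPM at homeostasis and 1179 and 1325 after 5-FU, and so changed order between conditions.

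**Figure D4:**
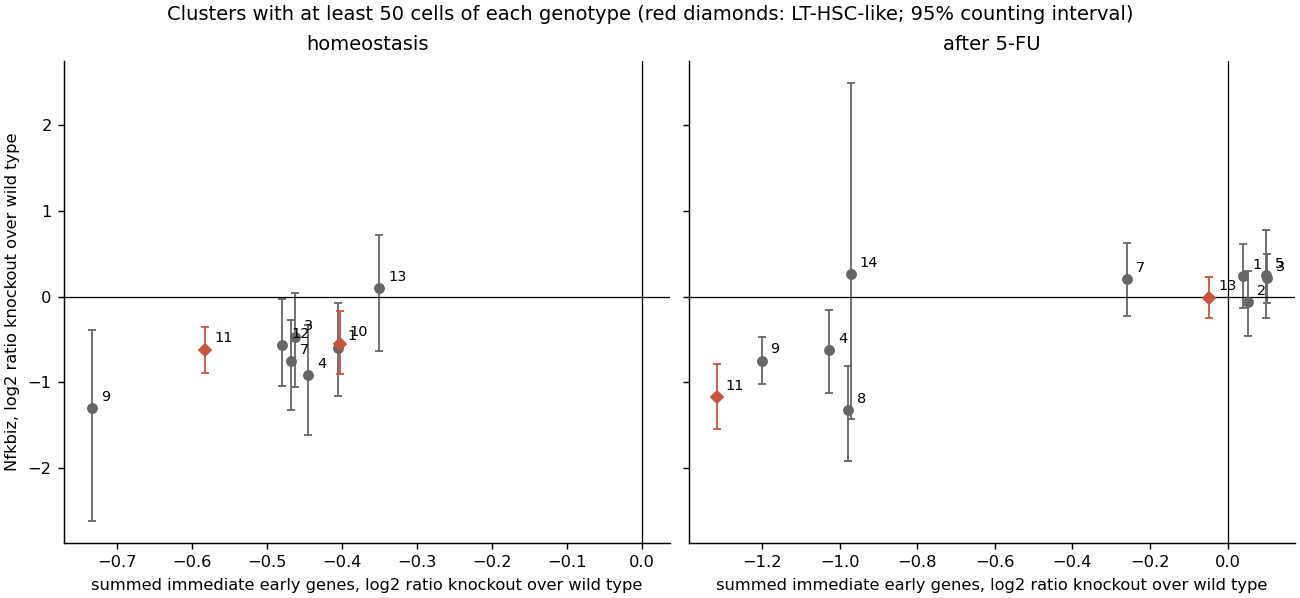
Log2 ratio of knockout over wild type of Nfkbiz (vertical axis, 95% exact binomial interval) against that of 15 summed immediate early genes (horizontal axis) in each numbered cluster with at least 50 cells of each genotype, with LT-HSC-like clusters as red diamonds. After 5-FU the clusters fall in 2 groups, 1 near 0 on both axes (with cluster 13) and 1 at -1.32 to -0.97 on the horizontal axis (with cluster 11).

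Markers of mature cells were also summed in LT-HSC-like cells. Of 5 genes each, monocyte and macrophage markers summed to 129 CPM in the wild-type and 141 in the knockout pool at homeostasis and 213 and 225 after 5-FU, and T and NK cell markers to 6.33 and 3.89 and to 12.4 and 8.87, with Cd3e, Cd3g and Ncr1 at 0 in both libraries. B cell, mature neutrophil, dendritic, basophil and mast, endothelial and stromal lists were each at 123 CPM or less. Erythroblast markers were at 92.2 CPM in the wild-type and 32.0 in the knockout pool at homeostasis and at 51.2 and 68.0 after 5-FU. Their part in the ratios was not tested.

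Of 74 other pathway genes, 57 had at least 50 UMIs in LT-HSC-like cells at homeostasis and 57 after 5-FU. At homeostasis 2 were at least 1.5-fold higher in knockout cells and 3 lower, against 2.58% and 3.81% of all genes, and after 5-FU 2 were higher and 8 lower, against 2.89% and 3.77%. Their median log2 ratios were 0.05 and -0.06. By role, no adaptor or kinase passed the fold in either condition (20 and 21 genes over the UMI floor), and the median of these genes was 0.08 and 0.05. Of the 13 other inhibitors, 1 was lower at homeostasis, and 1 was higher and 2 were lower after 5-FU, with medians of 0.13 and -0.26. Of 14 targets over the floor in each condition, 1 was higher and 1 lower at homeostasis and 1 was higher and 4 lower after 5-FU. Of 9 receptors at homeostasis 1 was higher and 1 lower, and of 8 after 5-FU 2 were lower.

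The genes at least 1.5-fold apart in the same direction in both conditions were Socs3, Gadd45b and Tnfrsf13c, each lower in knockout LT-HSC-like cells. The share of all genes that passed in the same direction in both conditions was not computed. With at least 200 UMIs over both pools, 0 pathway genes were lower at homeostasis. Socs3, an inhibitor of cytokine receptor signaling, was at 9.73 CPM in the wild-type and 5.96 in the knockout pool at homeostasis (-0.71, -1.19 to -0.23) and at 50.6 and 27.3 after 5-FU (-0.89, -1.14 to -0.64). Gadd45b, a stress-induced target of the pathway, was at 9.49 and 5.79 CPM (-0.71, -1.21 to -0.22) and at 18.5 and 11.9 (-0.64, -1.04 to -0.24). Tnfrsf13c, the receptor for BAFF, was at 7.18 and 4.06 CPM (-0.82, -1.41 to -0.25) and at 7.30 and 4.80 (-0.60, -1.25 to 0.03). In edgeR's fit over the 4 pools 0 of 65 pathway genes were called in LT-HSC-like cells, with 13 at an unadjusted p under 0.05, against 1026 of all 13952 genes.

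In all kept cells 1 of 69 pathway genes was called higher and 1 lower by edgeR, against 158 and 137 of 17225 genes (1.71% in all), both named here after their values were seen. At an unadjusted p under 0.05 there were 15 of 69, against 2438 of 17225. Tnip3, which encodes an A20-binding inhibitor, was at 44.9 CPM in the wild-type and 101 in the knockout pool at homeostasis and at 40.4 and 67.7 after 5-FU (log2 fold change 0.97, adjusted p 0.010). Il1r1, the IL-1 receptor, was at 80.4 and 48.5 CPM and at 31.0 and 16.4 (-0.81, adjusted p 0.0096). In LT-HSC-like cells Tnip3 was at 97.5 and 146 CPM at homeostasis and 80.4 and 134 after 5-FU (0.58 and 0.73), and Il1r1 at 42.1 and 36.7 and at 17.2 and 6.00 (-0.20 and -1.52).

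**Figure D5:**
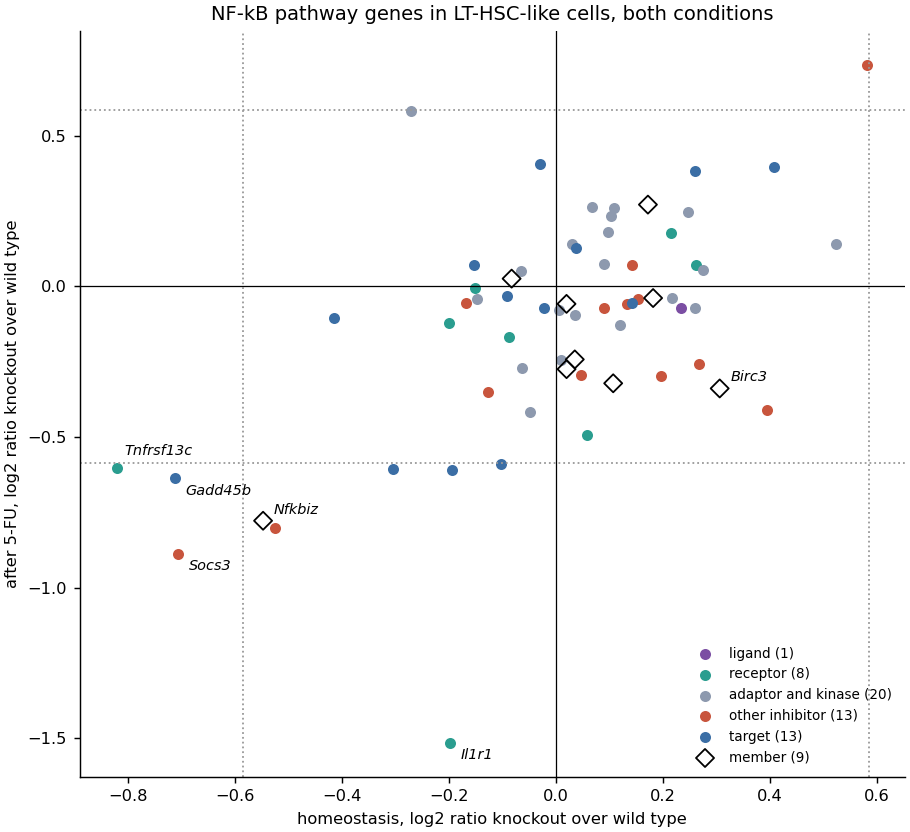
Log2 ratio of knockout over wild type in LT-HSC-like cells at homeostasis (horizontal axis) and after 5-FU (vertical axis) for pathway genes with at least 50 UMIs in both conditions, colored by role with the number of genes in the key, and for the 9 members (open diamonds), with dotted lines at 1.5-fold. Socs3, Gadd45b and Tnfrsf13c lie beyond 1.5-fold below 0 on both axes, and Nfkbiz (-0.55, -0.78) just inside it on the horizontal axis.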

How the data were processed

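LSK cells of wild-type and Sin3b knockout mice had been profiled with 10x Genomics 3' chemistry in 2 cDNA libraries with 2 hashtag libraries (4 samples). The deposited values were raw UMI counts per gene and barcode that the authors made with Cell Ranger, version 4 at homeostasis and 6.0.1 after 5-FU per the file headers. The build mm9 is listed in the submitters' processing notes with no role, and the settings of the aligner were not given in the sources used here. The homeostasis matrix held 6794880 barcodes and was not filtered for cells, so barcodes with at least 2921 UMIs were taken as cells (23931). The 5-FU matrix held 12753 called cells. Gene names of the homeostasis matrix were read from the 5-FU library's feature table once the order of rows had been checked (correlation of log counts between matrices 0.926 unshifted, at most 0.395 shifted).

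Genotypes were assigned with HTODemux (Seurat 5.3.0, R 4.3.3), with TotalSeq-B0096 as wild type and TotalSeq-B0157 as knockout per the study's methods. Cells with both tags were dropped. No other doublet caller was run, so doublets within a genotype remain. Cells in the highest or lowest 2% of UMIs, genes or mitochondrial share and cells with lineage genes were removed. Each library was clustered apart with scanpy 1.11.5 (Leiden resolution 1) on variable genes without the members, pathway and immediate early genes. Class names needed at least 50 cells, over 50% of a class's markers raised 1.5-fold, and no other class or cell type with as large a share raised. This scoring followed an earlier analysis and was adjusted after clusters had been seen.

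UMIs were summed per genotype, library and class. Ratios are log2 of sums with 0.5 added, scaled by pool totals, with exact binomial (Clopper-Pearson) intervals, and levels are CPM with exact Poisson intervals, all at 95% and for counting error only. A gene was called by fold at 1.5-fold with at least 50 UMIs over both pools. The test over all genes was edgeR 4.0.16 (filterByExpr, TMM, quasi-likelihood F-test, condition and genotype, Benjamini-Hochberg), with DESeq2 1.42.0 as an alternative. The scripts were tested on simulated data. The 4 pools are pools of cells from 2 mice each, with 1 pool per genotype and condition. The 1 residual degree of freedom is therefore how far the genotype ratio changed between conditions. The p-values thus do not measure a spread between replicate pools or mice. Pathway genes were named when at least 1.5-fold apart in the same direction in both conditions in LT-HSC-like cells, and 3 genes per member were named by likeness over clusters, of which 1 for Nfkb2 is not reported here. The members and lists were chosen with earlier results of these data known. Promoter windows came from RefSeq (GRCm38.p6), and the matrices carry no coordinates.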

Additional observations from a re-analysis of the deposited data

Results flagged for a closer look

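For 2 genes the genotypes lay in opposite order in the 2 conditions with both intervals off 0. The share of all genes that did so was not computed, so this count has no background. The difference was not tested, since 1 pool per genotype and library leaves no residual for an interaction. Birc3 had a log2 ratio of knockout over wild type of 0.31 at homeostasis and -0.34 after 5-FU in LT-HSC-like cells, and of 0.21 and -0.44 in all kept cells. Of the clusters with at least 50 cells of each genotype and 50 UMIs of the gene (9 at homeostasis, 10 after 5-FU), 0 had a Birc3 interval off 0, and the Birc3 ratio was above 0 in 5 of 9 at homeostasis and below 0 in 10 of 10 after 5-FU. The genotypes were spread unevenly over clusters. In cells outside the LT-HSC-like clusters Birc3 was at 0.07 (-0.04 to 0.18) at homeostasis and at -0.52 (-0.67 to -0.38) after 5-FU, and in the LT-HSC signature class at 0.26 (0.08 to 0.43) and -0.22 (-0.51 to 0.07). Nfkbia had 0.26 and -0.16 in all kept cells. In LT-HSC-like cells Nfkbia was at 0.02 (-0.12 to 0.16) and -0.27 (-0.37 to -0.18), so its homeostasis interval included 0 there. Outside the LT-HSC-like clusters it was at 0.23 (0.14 to 0.31) and -0.21 (-0.27 to -0.16).

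The barcodes of 1 to 100 UMIs in the homeostasis matrix (2193763 barcodes, 5415913 UMIs), which no comparison used, held 6 members at a level at least 1.5-fold above that of wild-type cells. The share of all genes above that fold was not computed, so whether this is particular to the members cannot be told. Tnfaip3 was at 59.3 CPM there, 9.99-fold its level in wild-type cells, Nfkbia at 329 CPM (4.99-fold), Nfkbiz at 102 CPM (2.48-fold), Nfkb2 at 14.6 CPM (2.13-fold), Relb at 21.4 CPM (1.93-fold) and Rel at 80.9 CPM (1.54-fold). Cells held at least 2921 UMIs. The part of this RNA in the levels of cells was not tested.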

How the results depend on the processing

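No replicate could be left out, since each genotype has 1 pool per library. Nfkbiz stayed lower in knockout cells under all 15 alternatives in LT-HSC-like cells (-0.77 to -0.42 at homeostasis, -1.17 to -0.01 after 5-FU) and all 7 in all kept cells, and passed 1.5-fold in LT-HSC-like cells under 4 of 15 and 8 of 15. The value of -0.01 was that without cluster 11.

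In LT-HSC-like cells at homeostasis the summed Rel family (0.06) was -0.037 with genotypes weighted equally within clusters, -0.050 with markers at 2-fold or without cluster 10, and -0.067 when clustered without 2317 genes that differ between genotypes (an alternative, like leaving out clusters, added after seeing the data). The summed feedback genes (-0.05) were 0.051 with equal weights and at resolution 0.5, 0.054 clustered without those genes, 0.047 with lineage cells kept, 0.050 by LT-HSC signature, 0.067 with quality extremes kept, 0.085 with markers at 2-fold or without cluster 10, and -0.16 when a hashtag had to hold 80%. After 5-FU the Rel family (-0.17) was -0.056 with equal weights, -0.047 by LT-HSC signature, -0.046 without cluster 11 and -0.067 without cluster 13. The feedback genes (-0.35) were -0.19 with equal weights, -0.22 at resolution 0.5 and by LT-HSC signature, -0.20 clustered without those genes, -0.12 without cluster 11, -0.28 without cluster 13, -0.16 at 80% hashtag share and -0.27 with lineage cells kept. The cause of these shifts was not tested.

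The 0 members called by edgeR became 1 (Nfkbiz) without the low-count filter in both pools and with library-size scaling in all kept cells. At an 80% hashtag share edgeR gave Nfkbiz an adjusted p of 0.14 in LT-HSC-like and 0.21 in all kept cells. With library-size scaling in LT-HSC-like cells its adjusted p in edgeR was 0.17. Over all genes edgeR made 17 calls in LT-HSC-like cells, against 11 by DESeq2, 8 with library-size scaling and 310 without the filter, and 295 in all kept cells, against 592 with library-size scaling and 595 without the filter. With at least 200 UMIs in LT-HSC-like cells, 0 pathway genes were higher and 0 lower at homeostasis (1.29% and 1.39% of 9576 genes), and 1 higher and 5 lower after 5-FU (1.18% and 1.71% of 8229). Nfkb2, Relb and Tnfaip3 had 63 to 194 UMIs per LT-HSC-like pool, which sets the width of their intervals. Hashtag assignment at an 80% share cut the knockout pool at homeostasis from 4115 to 879 cells and the wild-type pool from 10296 to 6227. After 5-FU the knockout pool went from 3308 to 4058 cells and the wild-type pool from 4855 to 4957. Most knockout cells of the main homeostasis pool thus had under 80% of their hashtag counts in the knockout tag, which limits all homeostasis ratios.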
